A study of Homo sapiens with 2 samples.

Results

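Centrosome and cilium genes were compared between 2 derivatives of the human line PC3, which came from a prostate carcinoma. One derivative stably overexpressed miR-95, a microRNA, and the other stably overexpressed a control microRNA. Each was grown in medium with serum and measured on 1 Affymetrix gene array from total RNA. The labels do not say whether a derivative is a clone or a pool, and the rise of miR-95 could not be checked because no named probe set used here reads it. The genes were taken by symbol: the CEP, CDK5RAP, IFT, BBS, TCTN, RPGRIP and ARL families and single genes such as PCNT, PCM1, STIL, SASS6, CCP110, OFD1, CNTRL, AHI1, NPHP4, TMEM67 and TMEM216. The rule found 96 of the 13864 genes measured. No named probe set used here matched the augmin (HAUS) or gamma-tubulin (TUBG and TUBGCP) symbols of the rule, nor CENPJ, CNTROB or TMEM231.

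The centrosome is built around a pair of centrioles and organises microtubules. Once per cell cycle each centriole templates a new one, a step that needs STIL and SASS6, and the surrounding pericentriolar material nucleates microtubules. In a resting cell the older centriole can become the basal body of a primary cilium. Intraflagellar transport (IFT) trains carry cargo along that cilium, the BBSome moves membrane proteins through it, and the transition zone acts as the gate at its base. Dividing cancer cells often have few primary cilia, so the levels of cilium genes say nothing of whether cilia were present.

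The overexpressed microRNA is the agent under study, and its mature arms are shown from RefSeq (GRCh38.p14) with the seed, bases 2 to 8, in capitals. The labels do not say which arm was raised. The 3p arm lies at chr4:8005312-8005333, minus strand, and the 5p arm at chr4:8005347-8005367, minus strand.
hsa-miR-95-3p: uUCAACGGguauuuauugagca
hsa-miR-95-5p: uCAAUAAAugucuguugaauu

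Values are log2 expression as deposited. A difference is the miR-95 value less the control value in log2 units, once each array had been centred on its median over genes, 7.495 for miR-95 and 7.46 for the control, which makes it 0.035 lower than the deposited values give. A gene counted as detected when either array read at or above its own median, which 7081 genes did, among them 75 of the 96 members. Of these, 73 were detected on both arrays, ARL14EPL through the control array alone and IFT74 through the miR-95 array alone. With 1 array in each group there is no test and no replicate error, and every statement describes these 2 arrays. As guides to size, the robust SD of the difference over all detected genes was 0.148, and different probe sets of 1 gene, over the 68 detected genes that have several, disagreed with a spread of 0.126. Each of the 96 members was read by 1 probe set. In such bulk RNA, fewer cells of a kind and less RNA per cell cannot be told apart.

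The epithelial markers KRT8, KRT18, KRT19, KRT7 and EPCAM were detected on both arrays, from 7.81 to 9.83 on miR-95 and from 7.86 to 9.65 on the control, and no named probe set used here read CDH1. Of the androgen-driven prostate markers, KLK3, KLK2 and FOLH1 were measured and none was detected. Markers of multiciliated cells, among them FOXJ1, MCIDAS, RSPH1 and TEKT1, were all below detection (0 of 10 measured). They read from 4.02 to 7.06 with miR-95 and from 4.11 to 6.91 in the control. No fibroblast (0 of 2), leukocyte (0 of 1) or endothelial (0 of 1) marker measured was detected, though the fibroblast gene LUM differed by -1.325, at 6.04 with miR-95 and 7.33 in the control.

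Most differences of the members were small. At least 1.5-fold higher on the miR-95 array were 0 of the 75 detected members, where 0.395% of all detected genes were, and at least 1.5-fold lower was 1 member, where 0.861% of all detected genes were. That member, ARL14EPL, passed detection through the control array alone, where it read higher. At a smaller limit, a difference of 0.322 either way, 1 member was higher (CEP85) and 3 were lower (ARL14EPL, CEP57 and CEP128). Over all detected genes 3.08% passed that limit upwards and 5.38% downwards, so these counts lay near the background. The median over the 75 members was -0.055, beside -0.035 over all detected genes.

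The members did not move alike. The 37 detected centrosomal genes had a median difference of -0.135 (31 negative, 6 positive), and the 28 detected intraflagellar and ciliary genes a median of 0.01 (13 negative, 15 positive). Over all detected genes 59.4% of differences were negative and 40.6% positive. The centrosomal median was thus 0.145 below the ciliary one, with no replicate arrays to give that distance an error. Within the ciliary class, the 10 detected IFT genes matched by symbol had a median of 0.1 (3 negative, 7 positive). The other 18 had a median of -0.03 (10 negative, 8 positive), near the -0.035 of all detected genes. Detected IFT subunits that the symbols do not match are TRAF3IP1, CLUAP1, WDR35, TTC21B and WDR19. Their differences ran from -0.315 (WDR35) to 0.045 (WDR19), and all but WDR19 were negative. With the values as deposited the split was 27 negative, 2 at 0 and 8 positive for centrosomal genes and 10 negative and 18 positive for ciliary genes, beside 48.0% negative and 49.4% positive over all detected genes. A shift of a whole array leaves the distance between the class medians as it is.

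**Figure D1:**
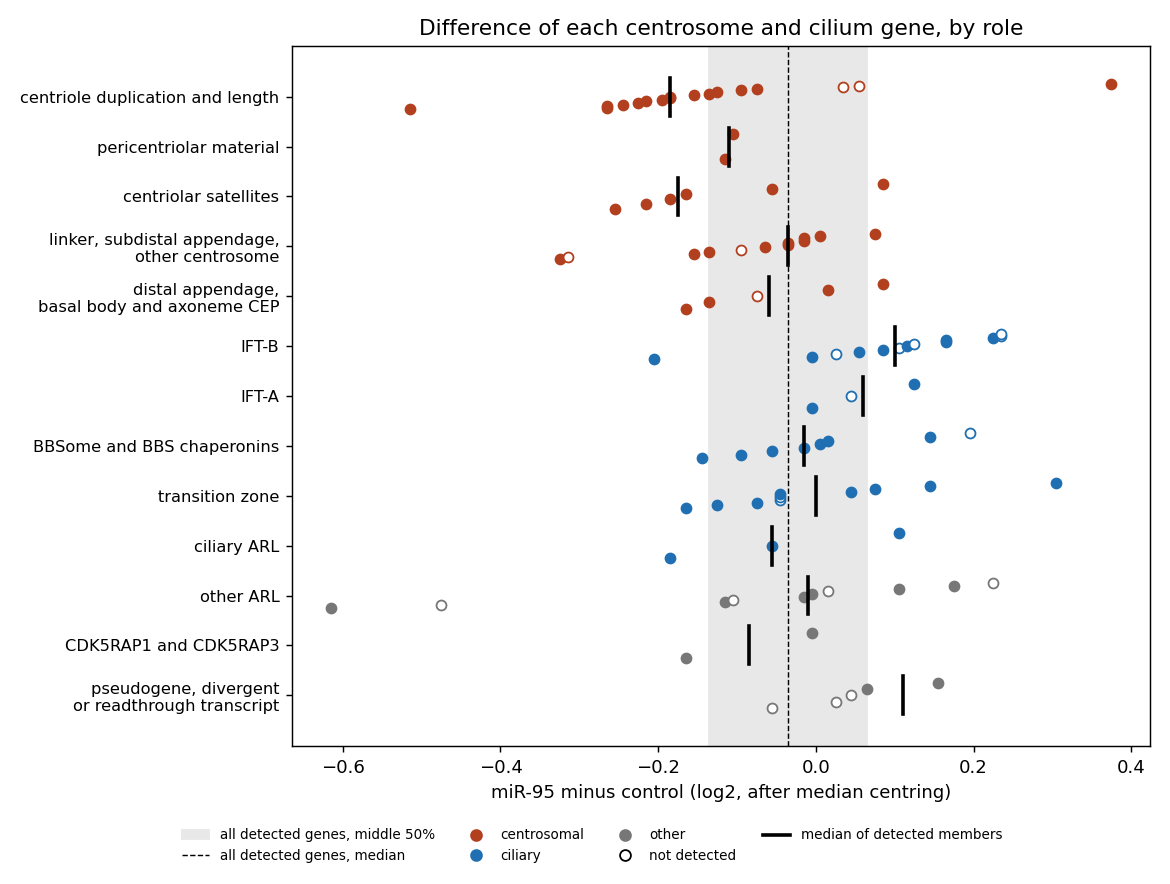
Difference of each of the 96 members (miR-95 minus control, log2, after median centring) by role, with filled points for detected genes, open points for genes not detected, a black bar at the median of the detected genes of a role, and the middle 50% of all detected genes in grey. Centriole duplication genes lie mostly left of the grey band's centre (median -0.185) and IFT-B genes mostly right of it (median 0.1). Many members lie outside the grey band, with ARL14EPL (-0.615) and CEP57 (-0.515) furthest left and CEP85 (0.375) furthest right.

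Genes of centriole duplication and length control were mostly lower with miR-95. Of 17 measured, 15 were detected, and 14 of these 15 had negative differences, with a median of -0.185. Over all detected genes 59.4% were negative, with a median of -0.035. SASS6, which forms the cartwheel of a new centriole, read 10.52 with miR-95, against 10.75 in the control, a difference of -0.265. STIL, the partner that recruits SASS6, read 10.42 on miR-95 and 10.63 on the control (-0.245). CEP97, the brightest gene of this role, which caps the centriole with CCP110 and restrains its growth, read 10.58 on miR-95 and 10.77 on the control (-0.225). After centring, STIL was 1.19-fold and CEP97 1.17-fold lower with miR-95, and SASS6 was lower by slightly more than STIL.

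CEP57, a protein of the inner pericentriolar material, had the lowest difference of the centrosomal genes, -0.515. It read 9.08 with miR-95, against 9.56 in the control, 1.43-fold lower after centring, and ranked 92nd from the lowest of the 7081 detected genes. CEP63, which binds CEP57 and CEP152 in the same ring, differed by -0.095, and CEP152, a scaffold for the kinase PLK4, by -0.075 (8.21 on miR-95, 8.25 on the control). CEP192, the other PLK4 scaffold, read 9.85 on miR-95 and 10.03 on the control (-0.215). Among these 4 genes CEP57 alone passed the smaller limit.

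The remaining duplication genes fell between these. CEP135, a protein of the centriole wall, differed by -0.265 (8.82 on miR-95, 9.05 on the control). CEP120, which promotes centriole elongation, differed by -0.195, CEP44 and CEP78 by -0.185 each, CEP295 by -0.155, CEP76, which limits repeated duplication, by -0.135, and CCP110 by -0.125. CEP85 was the exception in direction. It encodes a STIL partner and read 8.68 with miR-95, against 8.27 in the control, 1.30-fold higher after centring and the highest of the 75 detected members. CEP57L1, the paralog of CEP57, and CEP295NL were not detected, with differences of 0.055 and 0.035.

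**Figure D2:**
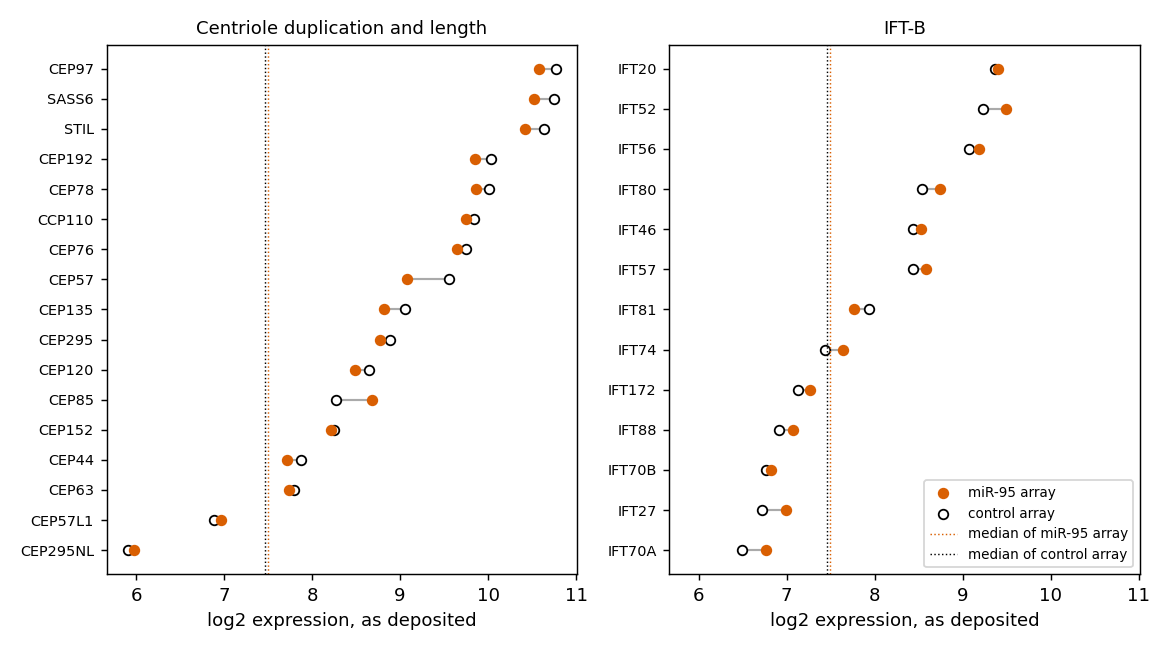
Deposited log2 expression on the miR-95 array (filled) and the control array (open) for the 17 centriole duplication genes and the 13 IFT-B genes, with dotted lines at the array medians. Among detected genes the miR-95 point lies left of the control point for every duplication gene except CEP85, and right of it for every IFT-B gene except IFT81.

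In the pericentriolar material, PCNT (pericentrin), its main scaffold, read 9.50 on miR-95 and 9.58 on the control (-0.115). CDK5RAP2, which anchors gamma-tubulin complexes there, read 8.70 on miR-95 and 8.77 on the control (-0.105). Both differences were smaller than the 0.126 spread between probe sets of 1 gene.

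Centriolar satellites are granules that ferry proteins to the centrosome and cilium. All 6 measured satellite genes were detected, and 5 had negative differences (median -0.175), where 59.4% of all detected genes did. CEP20, the brightest, read 10.93 on miR-95 and 11.15 on the control (-0.255). CEP126 differed by -0.215, PCM1, the scaffold of the granules, by -0.185 (9.95 on miR-95, 10.10 on the control), and CEP72 by -0.165. OFD1, which also acts at the distal end of the centriole, differed by -0.055, and CEP131 was the member with a positive difference, at 0.085.

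Linker, subdistal appendage and other centrosome genes had a median difference of -0.035, the same as all detected genes. Of the 10 detected, 8 were negative after centring, where 59.4% of all detected genes were. But with the values as deposited 4 were negative, 2 at 0 and 4 positive. CEP128, a subdistal appendage protein, was the lowest at -0.325 (8.42 on miR-95, 8.71 on the control), just past the smaller limit. It fell short of that limit under every alternative that changed its value. These were values as deposited and quantile normalization (-0.29 each), loess (-0.299) and an offset of 16 on the linear scale (-0.31). The brightest probe set and probe sets as units gave -0.32 each, through the array medians alone, since CEP128 has 1 probe set. CNTRL (centriolin), of the same structure, had a difference of -0.315 but was not detected, at 7.16 on miR-95 and 7.44 on the control. The abscission protein CEP55, the brightest of this role, differed by -0.155 (10.83 on miR-95, 10.95 on the control), and CEP350 by -0.135. CEP170, of the subdistal appendages, had a deposited value of 9.89 on both arrays, and CEP250, a fibre protein that links the centrioles, one of 7.59 on both. CEP95 differed by -0.065, CEP68 and CEP70 by -0.015 each, CEP43 by 0.005 and CEP170B by 0.075, while CEP85L was not detected (-0.095).

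The CEP genes of distal appendages, basal body and axoneme were mixed, at 2 negative and 2 positive of 4 detected. Of all detected genes 59.4% were negative. CEP41, which promotes tubulin glutamylation in cilia, read 9.91 on miR-95 and 10.04 on the control (-0.165), and CEP164, a distal appendage protein needed to start a cilium, 7.65 on miR-95 and 7.75 on the control (-0.135). CEP89 differed by 0.015 and CEP19 by 0.085, and CEP162 was not detected (-0.075).

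The IFT-B complex drives transport towards the tip of the cilium. Of its 8 detected genes matched by symbol, 6 had positive differences (median 0.1), none past the smaller limit. Over all detected genes 40.6% were positive. IFT74, among the 6, passed detection through the miR-95 array alone, where it read higher. The subunits TRAF3IP1 (IFT54) and CLUAP1 (IFT38), which the symbols do not match, differed by -0.165 and -0.005, so 6 of 10 were positive with them (median 0.07). IFT52, a core subunit, read 9.49 with miR-95, against 9.23 in the control (0.225). IFT80 read 8.74 on miR-95 and 8.54 on the control, and IFT74 7.64 on miR-95 and 7.44 on the control, a difference of 0.165 for each. IFT57 differed by 0.115, IFT56 by 0.085 and IFT46 by 0.055. The brightest of those matched, IFT20, was close to equal (9.40 on miR-95, 9.37 on the control).

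IFT81 had the lowest difference of the IFT-B genes, at 7.77 on miR-95 and 7.94 on the control (-0.205), although its product pairs with that of IFT74 to bind tubulin. The 5 IFT-B genes below detection, IFT27, IFT70A, IFT70B, IFT88 and IFT172, had differences from 0.025 to 0.235, so 11 of all 13 measured by symbol were positive, or 11 of 15 with TRAF3IP1 and CLUAP1. Over all genes measured, detected or not, 5979 of 13864 were positive. IFT70A and IFT70B are near-identical copies, and cross-hybridisation of the pair was not tested. Of the IFT-A genes matched by symbol, which serve the return transport, IFT140 differed by 0.125 (8.02 on miR-95, 7.86 on the control). IFT43 differed by -0.005 and IFT122, not detected, by 0.045. The IFT-A subunits WDR35, TTC21B and WDR19, which the symbols do not match, were detected and differed by -0.315, -0.045 and 0.045.

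The BBSome genes centred near 0, with 4 negative and 3 positive of 7 detected (median -0.015), where 59.4% of all detected genes were negative. BBS4 was the highest at 0.145 (9.03 on miR-95, 8.85 on the control) and BBS7, the brightest, the lowest at -0.145 (10.25 on miR-95, 10.36 on the control). BBS10, a chaperonin-like protein that helps the complex assemble, differed by -0.095 and BBS9 by -0.055. BBS1, BBS2 and BBS5 lay between -0.015 and 0.015, and BBS12 was not detected (0.195).

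Transition zone genes ranged more widely, with 4 negative and 4 positive of 8 detected, where 59.4% of all detected genes were negative. TMEM216, a membrane protein of the gate, read 9.75 with miR-95, against 9.41 in the control, a difference of 0.305, the highest of the ciliary class and just short of the smaller limit, which it passed with the values as deposited (0.34). The tectonics were also positive, TCTN3 at 0.145 (10.95 on miR-95, 10.77 on the control), TCTN2 at 0.075 and TCTN1 at 0.045. RPGRIP1L, a scaffold of the gate, read 7.92 on miR-95 and 8.05 on the control (-0.165). CEP290, which tethers microtubules to the membrane there, differed by -0.125, AHI1 by -0.075 and TMEM67 by -0.045. NPHP4 and RPGRIP1 were not detected, at -0.045 each. Outside the symbol rule, 8 of 11 detected transition zone and inversin genes were negative and 3 positive (median -0.085).

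ARL genes encode small GTPases of the ARF-like family and their partners, of which a few work in cilia. ARL6, which recruits the BBSome to membranes, read 8.33 on miR-95 and 8.48 on the control (-0.185). ARL3, which releases lipid-modified cargo in the cilium, differed by -0.055, and its binding partner ARL2BP, the brightest of all 96 members, by 0.105 (12.19 on miR-95, 12.05 on the control).

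A further 17 members matched by name but belong to neither class, and 10 were detected. ARL14EPL was the only member past 1.5-fold, at 7.15 on miR-95 and 7.73 on the control, or 1.53-fold lower after centring. It was detected through the control array alone and did not count as detected by the mean of both arrays. With the deposited values its difference was -0.58, short of 1.5-fold. ARL14, a small GTPase, was not detected and had a difference of -0.475 (5.83 on miR-95, 6.27 on the control). ARL16 was higher by 0.175 and ARL14EP by 0.105, ARL1, a GTPase of the Golgi, was at -0.115, and ARL6IP4 and ARL6IP5 differed by -0.005 and -0.015. CDK5RAP1, a mitochondrial tRNA-modifying enzyme, differed by -0.165 and CDK5RAP3 by -0.005. The pseudogene CEP170P1 read 10.03 on miR-95 and 9.84 on the control (0.155) where CEP170 itself differed by -0.035, and cross-hybridisation between the pair was not tested. The readthrough transcript ARL2-SNX15 differed by 0.065. ARL9, ARL11, ARL15, CEP192P1, CEP83-DT and IFT122P3 were not detected, with differences from -0.105 to 0.225.

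**Figure D3:**
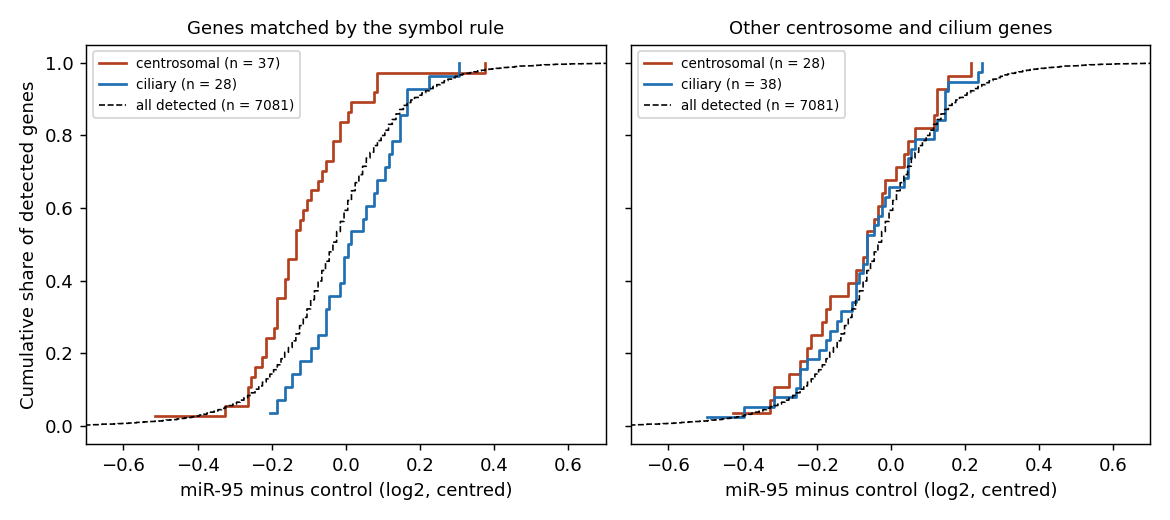
Cumulative share of detected genes by difference (miR-95 minus control, log2, centred), for genes matched by the symbol rule and for other centrosome and cilium genes, with all 7081 detected genes dashed. The centrosomal and ciliary curves are apart among the matched genes (medians -0.135 and 0.01) and overlie each other among the other genes (both medians -0.065).

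The separation of the classes was not seen in centrosome and cilium genes outside the symbol rule. Of 117 such genes listed, 81 were measured and 66 detected. The 28 detected centrosomal genes had a median of -0.065 (19 negative, 9 positive) and the 38 detected ciliary genes also a median of -0.065 (25 negative, 13 positive). Over all detected genes the median was -0.035, with 59.4% negative. None of the 66 passed 1.5-fold. At the limit of 0.322, 0 passed upwards, where 3.08% of all detected genes did, and 4 passed downwards (6.06%), where 5.38% did. The 4 were RTTN, CCDC14, KIAA0586 and IQCB1. CCDC14 fell short of the limit with the values as deposited (-0.29), quantile normalization (-0.28), loess (-0.283) and the offset (-0.319). It also did so with the brightest probe set and with probe sets as units (-0.32 each), where it moved by the same amount as CEP128.

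RTTN (rotatin), needed for centriole maturation, was the lowest of these centrosomal genes at -0.425 (9.17 on miR-95, 9.56 on the control). CCDC14, a satellite protein, differed by -0.325, and MZT1, a subunit of gamma-tubulin complexes, by -0.315. The highest were NEK2, a kinase that splits centrosomes before mitosis, at 0.215, LRRC45, of the centriole linker, at 0.155, and WDR90 and KIAA0753, tied at 0.125. PLK4, the kinase that starts centriole duplication, read 9.03 on miR-95 and 9.22 on the control (-0.225), close to STIL and SASS6. AURKA and PLK1, mitotic kinases of the centrosome, differed by 0.015 and 0.045.

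Among the other ciliary genes, IQCB1, which binds CEP290, was the lowest at -0.495 (9.26 on miR-95, 9.72 on the control). KIAA0586 (TALPID3), of the basal body, read 10.96 on miR-95 and 11.32 on the control (-0.395). The IFT-A gene WDR35 differed by -0.315, unlike IFT140. The highest were TMEM17, of the transition zone, at 0.245, UNC119, a carrier of lipid-modified cargo that ARL3 unloads, at 0.235 and ANKS6 at 0.155.

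Other features were set beside the class difference. Over all detected genes the median was lower in long genes, at -0.075 in the longest 25% by genomic span and 0.015 in the shortest 25%. In that longest 25% the median was -0.135 over 15 centrosomal genes and -0.05 over 10 ciliary genes, beside the -0.075 over all 1770 detected genes. In the next longest 25% it was -0.145 over 20 centrosomal and 0.065 over 12 ciliary genes, beside -0.065. By expression, detected genes were cut into 3 classes of nearly equal size. After centring, the 11 centrosomal genes in the bright class were all negative (median -0.185), as were all 9 in the middle class (-0.125). Of all detected genes 63.2% were negative in the bright class and 60.3% in the middle class. With the values as deposited, CEP170 of the bright class was at 0 and CEP70 of the middle class at 0.02. In the dim class 11 of 17 were negative (-0.075), beside 54.7% of all detected genes. The ciliary medians were 0.075 over 5 genes in the bright class, 0.065 over 10 in the middle class and -0.005 over 13 in the dim class. Over all detected genes the medians of the bright, middle and dim classes were -0.045, -0.035 and -0.015. The part of span and brightness in the class difference was not tested further.

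**Figure D4:**
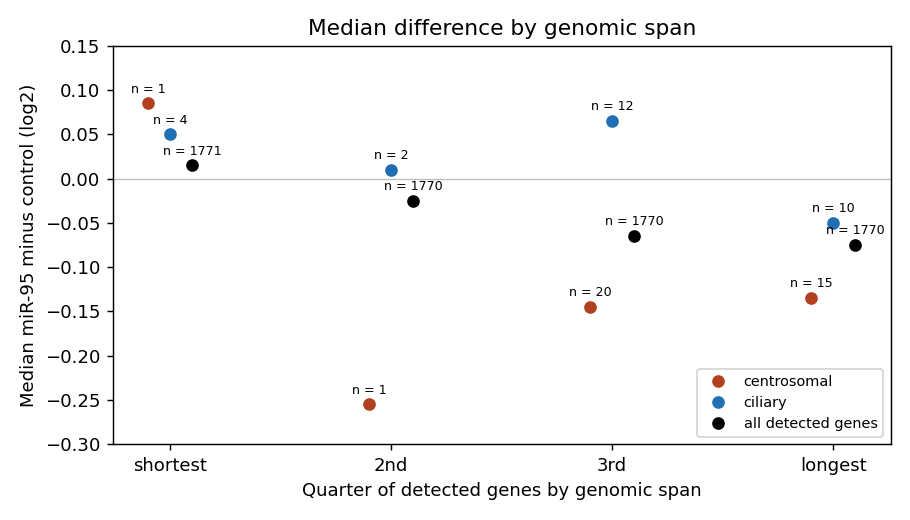
Median difference (miR-95 minus control, log2) of centrosomal, ciliary and all detected genes in 4 bins of genomic span, with the number of genes at each point. The centrosomal median is below the ciliary one in the longest bin (-0.135 and -0.05) and in the one before it (-0.145 and 0.065), and the 2 shorter bins hold few members.

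Promoters of RefSeq (GRCh38.p14), from 250 bases before to 50 after the gene start, were found for 33 of the 37 centrosomal and 24 of the 28 ciliary detected genes. They were searched on both strands for E2F letters (TTTGGCGC, TTTCCCGC, TTTGCCGC or TTTCGCGC), CCAAT, and for the exact RFX X-box consensus known from cilium genes. They were also searched for TTTGAA, the letters of the cell cycle homology region (CHR), and for its variant form TTCGAA. E2F letters stood in 6 of 33 centrosomal promoters (18.2%) and 0 of 24 ciliary ones, beside 5.85% of detected genes and 3.31% of all 35116 promoters. The 6 were CEP57, SASS6, STIL, CEP192, CEP63 and CEP68, with a median difference of -0.23, beside -0.135 for the other 27. Over the 5846 detected genes with a promoter the median was also lower with E2F letters, at -0.065 against -0.035 without. CHR letters stood in 11 centrosomal (33.3%) and 3 ciliary promoters (12.5%), beside 11.1% of detected genes and 16.4% of all promoters, with a median difference of -0.155 in those 11 and -0.12 in the other 22. The medians with and without CHR letters were -0.065 and -0.035 over detected genes, and 0.085 and 0.005 over ciliary genes. CCAAT stood in 54.5% of centrosomal and 33.3% of ciliary promoters, beside 37.6% of detected genes and 34.6% of all promoters. Centrosomal medians with and without CCAAT were close, at -0.145 and -0.135. The X-box stood in 1 centrosomal promoter, that of CEP135, and 0 ciliary ones, beside 0.889% of detected genes and 0.746% of all promoters. In none of the 57 promoters did matches of different motifs overlap. A match describes letters only.

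The promoters of CEP57, SASS6 and STIL are shown because these lower duplication genes hold E2F letters, and that of TMEM216, the highest ciliary gene, because it holds none of the motifs. Lower genes without any of the motifs also occurred, among them CEP128 (-0.325) and IFT81 (-0.205), so these picks are no comparison. Capitals mark matches to E2F, CHR or CCAAT letters on either strand, and each sequence reads 5′ to 3′ towards the gene. CEP57 lies at chr11:95789764-95790063, plus strand, SASS6 at chr1:100132881-100133180, minus strand, STIL at chr1:47314098-47314397, minus strand, and TMEM216 at chr11:61392337-61392636, plus strand.
CEP57: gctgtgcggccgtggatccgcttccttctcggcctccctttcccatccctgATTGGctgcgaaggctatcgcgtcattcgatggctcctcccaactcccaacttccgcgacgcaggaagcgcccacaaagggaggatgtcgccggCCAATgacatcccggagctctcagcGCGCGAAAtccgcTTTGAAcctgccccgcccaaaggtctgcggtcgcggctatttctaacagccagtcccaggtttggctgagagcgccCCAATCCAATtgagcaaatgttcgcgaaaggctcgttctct
SASS6: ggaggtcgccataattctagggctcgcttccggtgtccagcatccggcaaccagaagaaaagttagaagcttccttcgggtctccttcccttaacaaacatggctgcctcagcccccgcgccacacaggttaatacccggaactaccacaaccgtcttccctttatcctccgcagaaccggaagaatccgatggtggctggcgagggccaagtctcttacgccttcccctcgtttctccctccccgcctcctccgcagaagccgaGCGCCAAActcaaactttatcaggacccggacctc
STIL: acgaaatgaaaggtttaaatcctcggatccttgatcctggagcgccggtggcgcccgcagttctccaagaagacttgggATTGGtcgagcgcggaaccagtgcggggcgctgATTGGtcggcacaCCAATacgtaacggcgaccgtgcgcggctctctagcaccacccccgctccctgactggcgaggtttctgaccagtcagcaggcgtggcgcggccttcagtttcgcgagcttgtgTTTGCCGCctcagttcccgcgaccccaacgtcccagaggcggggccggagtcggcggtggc
TMEM216: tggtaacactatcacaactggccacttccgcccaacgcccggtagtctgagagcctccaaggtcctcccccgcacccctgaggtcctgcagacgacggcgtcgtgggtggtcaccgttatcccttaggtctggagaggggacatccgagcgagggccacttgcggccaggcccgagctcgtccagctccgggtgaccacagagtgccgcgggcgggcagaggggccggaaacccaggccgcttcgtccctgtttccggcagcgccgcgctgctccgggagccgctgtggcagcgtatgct
In CEP57 the E2F match covers bases 171 to 178 and the CHR match bases 184 to 189 of the sequence. The E2F match covers bases 266 to 273 in SASS6 and 240 to 247 in STIL.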

How the data were processed

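Total RNA of each PC3 derivative was hybridised to 1 Affymetrix array. The authors deposited log2 expression values per probe set. The log2 scale was read from the values (1.79 to 13.83 on miR-95, 1.94 to 13.84 on the control). Per the submitters' processing notes the software was Affymetrix Expression Console 1.2. For summarisation, scaling, build and filters, the settings were not given in the sources used here. Centring hides any shift shared by all transcripts. Of 23641 probe sets, 14088 had 1 gene symbol in the platform annotation (several in 0) and 9553 none. All 14088 matched RefSeq (GRCh38.p14), giving 13864 genes, and probe sets of a gene were averaged. Arrays were median-centred, and detection, folds and medians were computed with Python 3.11.15, pandas 2.3.3 and numpy 2.4.6. The steps were tested on simulated data. Arrays carry no read depth, and their number limits the precision.

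The members, role lists, genes outside the symbol rule, motifs, printed promoters and the rule for named genes were chosen with earlier results of these data known. That rule took detected members past 0.322, the 2 highest, 2 lowest and the brightest of each role, undetected members past 1.5-fold (0), members within 0.05 of 1.5-fold, and the 3 highest and 3 lowest of each class outside the symbol rule. CEP170P1 was moved from the centrosomal class to the pseudogenes after its value was seen. SASS6, STIL, PLK4, AURKA, PLK1, LUM, TRAF3IP1, CLUAP1, TTC21B, WDR19, KIAA0753 and the further members were named outside it, after their values were seen. Alternatives were no centring, quantile or loess (span 0.4) normalization, other detection rules, the brightest probe set, an offset of 16, probe sets as units, and other classes. Sites for the miR-95 seed were not searched.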

Additional observations from a re-analysis of the deposited data

How the results depend on the processing

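No paired analysis was possible because each group holds 1 array. The centrosomal median of the members was below the ciliary one under each of 15 alternatives, 2 of them chosen after seeing the data. Of these, no centring, the brightest probe set, probe sets as units and classes by symbol alone could hardly move the gap by their construction. The gap of -0.145 was -0.22 when detection was set at the 75th percentile, -0.085 for the longest 25% of genes by span and -0.095 without the centriole duplication genes. The centrosomal median was -0.1 with values as deposited, -0.105 with quantile normalization, -0.114 with loess, -0.185 with detection at the 75th percentile and -0.085 without the duplication genes. The ciliary median, 0.01, was 0.045 as deposited, 0.0375 with quantile normalization, 0.0362 with loess, 0.045 with detection at the 25th percentile or no filter, 0.035 at the 75th and -0.05 in the longest 25% by span. The median over all members was -0.02 as deposited and with quantile normalization, -0.0222 with loess, -0.035 with detection at the 25th percentile and -0.04 with no filter. Outside the symbol rule, the centrosomal median was -0.03 as deposited, -0.0325 with quantile normalization and -0.0384 with loess, and the ciliary one -0.03, -0.0206 and -0.029, or -0.135 with detection at the 75th percentile, where the centrosomal one was -0.045 and so above it. The median of all detected genes itself moved to 0 as deposited and with quantile normalization.

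The 1 member at least 1.5-fold lower became 0 as deposited, with detection at the 75th percentile or by the mean of both arrays, and with the offset. Past 0.322 upwards there were 2 members as deposited and with quantile or loess normalization, and 0 with detection at the 75th percentile. The 3 past it downwards became 2 as deposited, with quantile or loess normalization and with detection by the mean of both arrays. The brightest probe set, the offset and probe sets as units also gave 2. Detection at the 25th percentile or no filter gave 4, and detection at the 75th percentile gave 1. Single genes could move only with the centring, the normalization and the offset, and to a slight degree with the choice of probe sets. All 57 named genes then moved by less than the spread between probe sets, but CEP128, CCDC14 and TMEM216, close to the limit, changed sides of it. Adding TRAF3IP1 and CLUAP1 to IFT-B was chosen after seeing the data. The cause of these shifts was not tested, except that a uniform shift of the centring moves all medians alike.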
